A study of Mus musculus with 2 samples.

Results

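Cycling basophils of the E-cadherin+cKIT- sort are the subject here. They are bone marrow cells that carried transcripts of the basophil lineage together with Mki67 and Top2a, a pair of genes transcribed in dividing cells. A member had at least 1000 unique molecular identifiers (UMIs, each one a captured RNA molecule), at least 0.3% of them from Mcpt8, Fcer1a, Ms4a2 and Cd200r3 together, fewer than 3 UMIs each of Cd79a, C1qa and Prg2, and at least 2 UMIs of Mki67 and Top2a together. This selection kept 1005 of the 3745 cells of the E-cadherin+cKIT- library (26.8%), out of 10377 cells in the series. The 2161 basophils of the same library below the Mki67 and Top2a minimum served as the comparison and are called resting, which means only that.

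Both libraries came from bone marrow labelled as FVB, and the paper names their 3 donors as VaviCre;mTmG in one place and as wild-type in another, so the genotype is not settled. The cKIT- cells were sorted as E-cadherin+cKIT- and the other library as E-cadherin+cKIT+, with no treatment and no age in the labels. VaviCre drives Cre recombinase in hematopoietic cells, mTmG is a fluorescent reporter of Cre, and cells of different mice cannot be told apart within a library. The cKIT- library held 24033994 UMIs and the cKIT+ library 95477153 UMIs in 6632 cells. With 1 library for each sort there was no replicate, so no comparison was tested. Sort, library and depth cannot be told apart between the libraries, and all intervals are 95% intervals that cover counting error only.

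Basophils are granulocytes that store histamine and proteases, bind IgE through its high-affinity receptor and release chemokines and type 2 cytokines. They arise in the bone marrow from progenitors that lose the stem cell factor receptor cKIT, and most basophils in blood and tissue no longer divide. A dividing cell copies its DNA in S phase, where E2F factors drive genes for replication and nucleotide supply, and then switches on genes for the spindle, the chromosomes and their separation in G2 and mitosis. Promoters of the latter often carry a CHR element (TTTGAA), which binds the MuvB complex, near CCAAT boxes, which bind NF-Y.

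Levels of lineage markers are given before the results. Mcpt8, Cd79a, C1qa and Prg2 took part in the selection, so their levels were fixed by it and check nothing. Within the members, Mcpt8, a basophil granule protease, had per-cell values with a median of 34018 CPM (a gene's UMIs divided by all UMIs of the cell or group, on the usual scale) and quartiles of 27948 and 40537, and Prss34, a granule protease that the selection did not use, had a median of 55708 CPM. All 14 genes of the basophil identity list had UMIs, 10 of them outside the selection. Mcpt4 and Tpsb2, proteases of mature mast cells, had no UMI, and the 6 mast cell markers together summed to 3.52 CPM with Cma1 as their most abundant gene at 2.32 CPM. Of the B cell markers, Pax5 had no UMI and Cd79b, the most abundant, had 37.9 CPM. The 7 macrophage markers summed to 2.23 CPM with C1qa the most abundant at 0.601 CPM, and the eosinophil markers, Prg2 among them, to 89.9 CPM, most of it from Ear2 at 45.8 CPM. Erythroid markers summed to 25.3 CPM, most of it Car2, with Car1 at 0, and the 5 monocyte markers to 31.6 CPM. T and NK cell markers summed to 1200 CPM in cycling and 1268 CPM in resting cells, of which Trbc1 gave 588 CPM, while Cd3e and Ncr1 had no UMI. Kit, the gene of the receptor used for the sort, had 12 UMIs or 1.03 CPM in the members, against 18.6 CPM in cycling cKIT+ basophils. Cdh1, which encodes E-cadherin, had 157 CPM.

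Transcripts of 5 neutrophil genes sat in very few cells. S100a8 had 382 CPM over the members, but 1 cell held 80.2% of its UMIs, and 2 members held 98.0% of the UMIs of S100a8, S100a9, Camp, Ngp and Ltf. Without these 2 members S100a8 had 9.83 CPM and Camp 1.55 CPM, where it had 176 CPM with them. In the resting cells 3 of 2161 cells carried such counts. Leaving out all 5 cells gave 288 genes at least 2-fold higher and 170 at least 2-fold lower in cycling cells, and 292 and 167 were obtained with them. Scrublet, a doublet caller, marked 3 of the 3745 cells, too few for its call to have worked. Of the cells with the highest doublet scores, taken at 0.8% per 1000 cells, 56 were members, which is 5.57% of the members, and 1.99% of the resting cells were among them. Between the libraries 10 cell barcodes were shared, 3 of them among the members.

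The 8 neutrophil lineage markers summed to 2528 CPM in cycling and 1588 CPM in resting cells, and to 1370 and 1003 CPM without the neutrophil-rich cells, when Mpo, which early myeloid cells share, gave most of it. No member held more than 1.16% of the Mpo UMIs.

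The values used for the selection are given as a description. Members carried a median of 13 UMIs of Mki67 and Top2a, with quartiles of 6 and 20 and a maximum of 50. Both genes were seen in 900 members, Top2a alone in 47 and Mki67 alone in 58. Just inside the limit were 96 members with exactly 2 UMIs, and just outside it were 192 resting cells with 1 UMI, while 1969 basophils had none. The 4 basophil genes took a median of 3.80% of the members' UMIs. Between 0.2% and 0.3% lay no cell with the cycling minimum, and 1 lay between 0.3% and 0.4%, so the basophil limit fell into a gap. The third condition, on Cd79a, C1qa and Prg2, removed 1 cell.

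Members held more RNA molecules than the resting cells of their library. Their median was 11082 UMIs and 3176 genes per cell, with quartiles of 8895 and 13739 UMIs, and resting cells had a median of 3700 UMIs with quartiles of 2920 and 5598. A deeper cell reaches 2 UMIs of Mki67 and Top2a more easily. Of all cKIT- basophils, 31.7% met the minimum (interval 30.1% to 33.4%), and with every cell thinned to 2000 UMIs 600 of 3060 met it, or 19.6% (18.2% to 21.1%). At 2000 UMIs the share still differed by the depth the cell had before thinning: it was 2.18% of cells with 2000 to 4000 UMIs, 19.5% of those with 6000 to 8000 and 52.3% of those with 12000 or more. In the cKIT+ library 63.6% of 3519 basophils met the minimum, and 33.8% (32.3% to 35.4%) did at 2000 UMIs. The ratios below are therefore also given for 463 members and 463 resting cells drawn to match in UMIs per cell, with medians of 8731 and 8649 UMIs.

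Genes of G2 and mitosis separated the cycling from the resting cells most. Of the 58 genes in this list, which does not hold Mki67 or Top2a, all 58 had a CPM at least 2-fold higher in the members, and 7 of 7 were so among those that had at least 50 CPM in both states. Over all genes with at least 10 UMIs 1218 of 11608 were, and 9.04% of those with at least 50 CPM. Cdk1, the kinase that starts mitosis, had 478 CPM in cycling and 12.4 CPM in resting cells, a ratio of 38.7 (interval 32.4 to 46.6). Its ratio was 19.9 at matched depth, from 437 and 22.0 CPM. Ccnb1, which encodes the cyclin that activates Cdk1, had 183 against 4.05 CPM. Ube2c, a ubiquitin-conjugating enzyme that helps to destroy cyclins, had 960 against 24.1 CPM, a ratio of 39.8 (35.1 to 45.4). Prc1, which bundles the microtubules of the central spindle, had the largest ratio in the list that rested on more than 50 CPM, 134 (83.7 to 231), from 226 and 1.68 CPM. Spc25, a subunit of the kinetochore, had 126 against 0.989 CPM, and Aurka, a spindle kinase, 100.2 against 1.09 CPM. Plk1, another mitotic kinase, had 83.4 against 0.989 CPM. The smallest ratio was that of Cks2, a Cdk-binding protein, with 854 against 276 CPM or 3.09. Hmgb2, a chromatin protein, had 4559 against 1222 CPM. The 52 members with at least 50 CPM in either state had a median log2 ratio of 4.74, and the median over all 3230 genes tested was 0.03. Since cells were chosen by Mki67 and Top2a, which are transcribed in the same phases, these ratios describe the chosen cells and support nothing beyond that.

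The promoters of this gene group were read for the CHR element and the CCAAT box, because its members moved together. RefSeq promoters (GRCm38.p6) run from 250 bases before to 50 bases after a gene's start, and 51 of the 58 genes matched, with 57 promoters. TTTGAA on either strand was present in 66.7% of these promoters and in 17.9% of all 32851 promoters. CCAAT on either strand was present in 78.9% and 37.4%, and both motifs in 57.9% and 6.95%. The words can share end bases. In the 44 promoters of the S phase list, TTTGAA was present in 13.6% and CCAAT in 56.8%. The E2F words TTTGGCGC or TTTCGCGC, which can overlap each other on opposite strands, were present in 22.7% of S phase promoters, 3.51% of G2 and mitosis promoters and 0.813% of all promoters. A match is a description of the sequence, not evidence of a bound site. To show the arrangement, the 100 bases before the start are printed for the 3 genes of the list that, with 1 chromosome not read, held both motifs in that stretch, overlapped no GENCODE transcript there and were at least 2-fold higher in cycling cells in both libraries and at matched depth. Capitals mark TTTGAA and CCAAT or their reverse complements TTCAAA and ATTGG, and each sequence is given 5′ to 3′ on the gene's strand. Hmgb2 lies on the plus strand (chr8:57511743-57511842), Kif11, a spindle motor, on the plus strand (chr19:37376282-37376381) and Ckap2l, a spindle pole protein, on the minus strand (chr2:129297213-129297312).
Hmgb2: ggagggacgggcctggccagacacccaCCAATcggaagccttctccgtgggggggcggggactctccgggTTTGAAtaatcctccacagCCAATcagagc
Kif11: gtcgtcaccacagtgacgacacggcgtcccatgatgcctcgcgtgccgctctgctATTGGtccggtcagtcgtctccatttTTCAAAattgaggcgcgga
Ckap2l: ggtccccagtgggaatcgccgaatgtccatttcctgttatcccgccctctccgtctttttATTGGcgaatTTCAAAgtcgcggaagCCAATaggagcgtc
Each of the 3 printed stretches of 100 bases holds 1 CHR word, and those of Hmgb2 and Ckap2l hold 2 CCAAT words each. Kif11 had 174 CPM in cycling and 3.46 CPM in resting cells, and Ckap2l 95.7 against 1.98 CPM.

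S phase genes were less uniform. Of the 52 genes in the list, 32 had a CPM at least 2-fold higher in cycling cells and none was 2-fold lower, where 1218 of all 11608 genes with at least 10 UMIs were higher. Rrm2, the regulated subunit of ribonucleotide reductase, had 289 against 6.63 CPM, a ratio of 43.7 (34.3 to 56.5), and its ratio was 27.4 at matched depth. Tyms, which makes thymidylate, had 299 against 67.2 CPM, and Tk1, thymidine kinase, 81.9 against 4.94 CPM. Subunits of the MCM helicase that opens DNA for replication differed less: Mcm6 had 141 against 113 CPM and Mcm5 111 against 54.2 CPM, and at matched depth the ratios of Mcm6 and Mcm5 were 0.720 and 1.24. Rfc2, a subunit of the clamp loader, had 410 against 473 CPM. Of the 29 genes with at least 50 CPM 19 were at least 2-fold higher, beside 9.04% of all genes tested, with a median log2 ratio of 1.11, and 7 of the 15 that reached 50 CPM in both states were. At matched depth 12 of 35 were, beside 6.65% of all genes, and the median was 0.62.

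Histone transcripts of the clustered genes, which package newly copied DNA, were higher in the members as well. Hist1h1b, a linker histone, had 374 CPM in cycling and 2.97 CPM in resting cells, a ratio of 126 (88.1 to 187). Hist1h2ak had 224 against 5.14 CPM, whereas Hist1h1c, a linker histone that is also made outside S phase, had 220 against 213 CPM. Of the 12 clustered histone genes with at least 50 CPM, 11 were at least 2-fold higher, beside 9.04% of all genes tested, but most reached 50 CPM only in the cycling cells. Of the 2 that reached it in both states 1 was at least 2-fold higher. Most of these transcripts lack a poly(A) tail, so a poly(A)-primed library sees a part of them, and near-identical copies can share reads. Among histone genes outside the clusters, H2afz had 4679 against 1129 CPM and H2afx 1073 against 39.7 CPM. H3f3b had 3486 against 3521 CPM.

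Over all genes with at least 50 CPM in either state, leaving out the 9 genes used for the selection, 292 of 3230 were at least 2-fold higher in cycling cells (9.04%) and 167 were at least 2-fold lower (5.17%). Of the 292, 82 belonged to the S phase, G2 and mitosis or clustered histone lists and 210 did not. The 10 largest ratios outside these lists were as follows. Mxd3, a transcription factor of the MAX network, had 68.7 against 0.297 CPM, with 3 resting UMIs and a ratio of 232 (79.0 to 1126). Pbk, a mitotic kinase, had 103 against 0.494 CPM, a ratio of 209. Esco2, which acetylates cohesin, had 66.7 against 0.593 CPM, Kif15, a spindle motor, 103 against 1.09 CPM and Ncapg, a condensin subunit, 72.8 against 0.791 CPM. Sgo2a, Shcbp1, Neil3, Depdc1a and Aspm completed this group, with ratios between 51.3 and 68.9. The dot plot of these genes shows both libraries side by side.

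**Figure D1:**
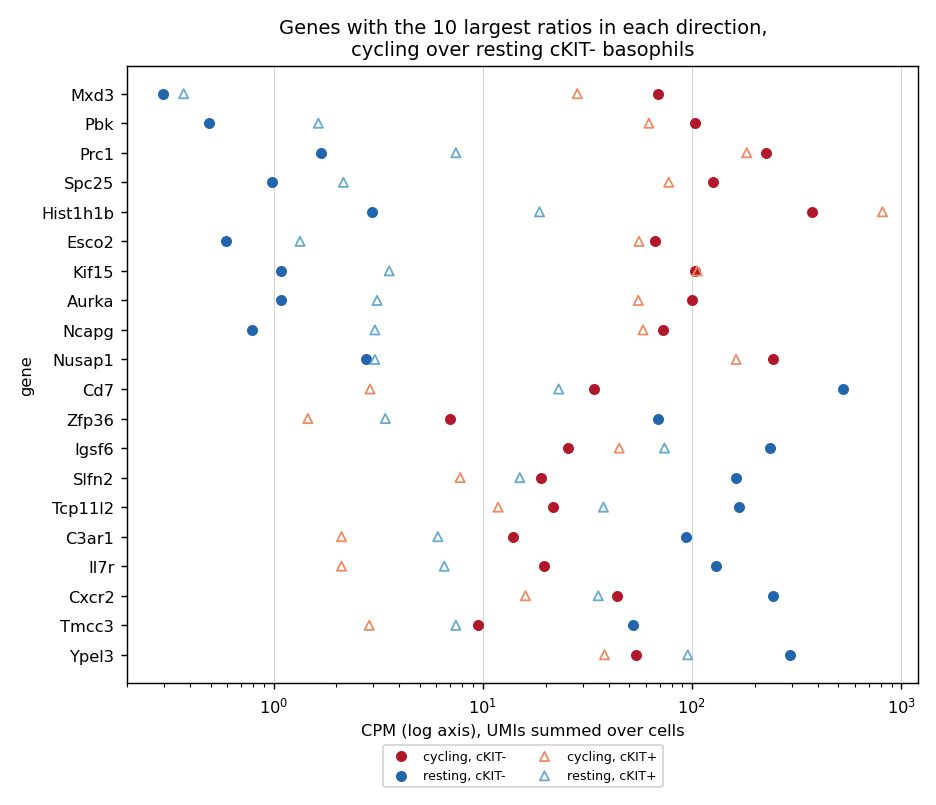
CPM on a log axis for the 10 genes with the largest ratio and the 10 with the smallest ratio of cycling over resting cKIT- basophils, with filled circles for the cKIT- library and open triangles for the cKIT+ library. The 10 upper genes have 66.7 CPM or more in cycling cKIT- cells and at most 2.97 CPM in resting ones, and each of the 20 genes lies on the same side in both libraries.

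Among the genes lower in the members were surface receptors and chemokines. Cd7, an immunoglobulin superfamily receptor, had 34.1 CPM in cycling and 528 CPM in resting cells, a ratio of 0.0645 (0.0581 to 0.0715). Zfp36, which destabilizes cytokine mRNAs, had 6.96 against 68.8 CPM and C3ar1, a complement receptor, 13.9 against 93.2 CPM. Il7r, an interleukin 7 receptor subunit, had 19.6 against 130.6 CPM. Cxcr2, a chemokine receptor, had 43.6 against 243 CPM. Igsf6, Slfn2, Tcp11l2, Tmcc3 and Ypel3 had ratios between 0.109 and 0.185. Of the 12 chemokines and type 2 cytokines, 7 of the 8 with at least 50 CPM were at least 2-fold lower, where 5.17% of all genes tested were, and 5 of the 6 that reached 50 CPM in both states. Ccl3 had 905 against 2020 CPM, Ccl4 142 against 557 CPM, Ccl6 826 against 3112 CPM and Ccl9 1001 against 3165 CPM. Il4 had 20.01 against 58.7 CPM, and Il6, the eighth, 94.1 against 175 CPM. Among the CD200 receptor and Lilr genes 4 of 9 were at least 2-fold lower, and 2 of the 7 that reached 50 CPM in both states. Lilr4b had 170.5 against 558 CPM, and at matched depth it had 226 against 193 CPM. At matched depth 0 of 8 genes of the list were at least 2-fold lower, beside 0.583% of all genes tested. Paralogs in this family are near-identical in part, so their counts are uncertain.

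Most of these lower values were not seen between cells of like depth. Matching also changed which cells were compared. Median depth was 8649 UMIs in the matched and 3700 UMIs in all resting cells, and 8731 and 11082 UMIs in the members. Chemokines and type 2 cytokines summed to 4087 CPM in the matched and 9480 CPM in all resting cells. Granule protease and matrix genes summed to 95128 and 61698 CPM. Depth and the kind of resting cell thus cannot be told apart here. At matched UMIs per cell, 205 of 3085 genes were at least 2-fold higher (6.65%) and 18 were at least 2-fold lower (0.583%). Of the 292 higher genes 284 could be compared at matched depth and 184 of them were again at least 2-fold higher (64.8%). Of the 167 lower genes 101 could be compared and 6 were again at least 2-fold lower (5.94%). These 6 were Ccnd2, a cyclin of the G1 phase, Cd7, Gdpd3, Igsf6, Tcp11l2 and Ypel3, named after their values were seen. Cd7 had 46.8 against 127 CPM there, a ratio of 0.368. Ccl3 had 1202 against 1053 CPM, Ccl4 184.6 against 182 CPM and Ccl6 1096 against 1051 CPM, so that 0 of 6 chemokines and cytokines passed 2-fold in either direction. All 51 G2 and mitosis genes, 10 of 12 clustered histones and 12 of 35 S phase genes with at least 50 CPM were at least 2-fold higher there. Only 1 clustered histone was at least 2-fold lower there. The median log2 ratio over all genes was 0.15 at matched depth, and ribosomal protein genes had a median of -0.66. All 5 neutrophil lineage genes tested were lower at matched depth, S100a8 with 8.36 against 412 CPM, and in all resting cells S100a8 had 184 CPM with and 7.64 CPM without the 3 neutrophil-rich cells. Mpo, a granule peroxidase, had 746 against 2091 CPM at matched depth, a ratio of 0.357, although over all cells it had 1323 against 964 CPM. Its level over all cells without the neutrophil-rich ones was 1327 against 965 CPM.

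**Figure D2:**
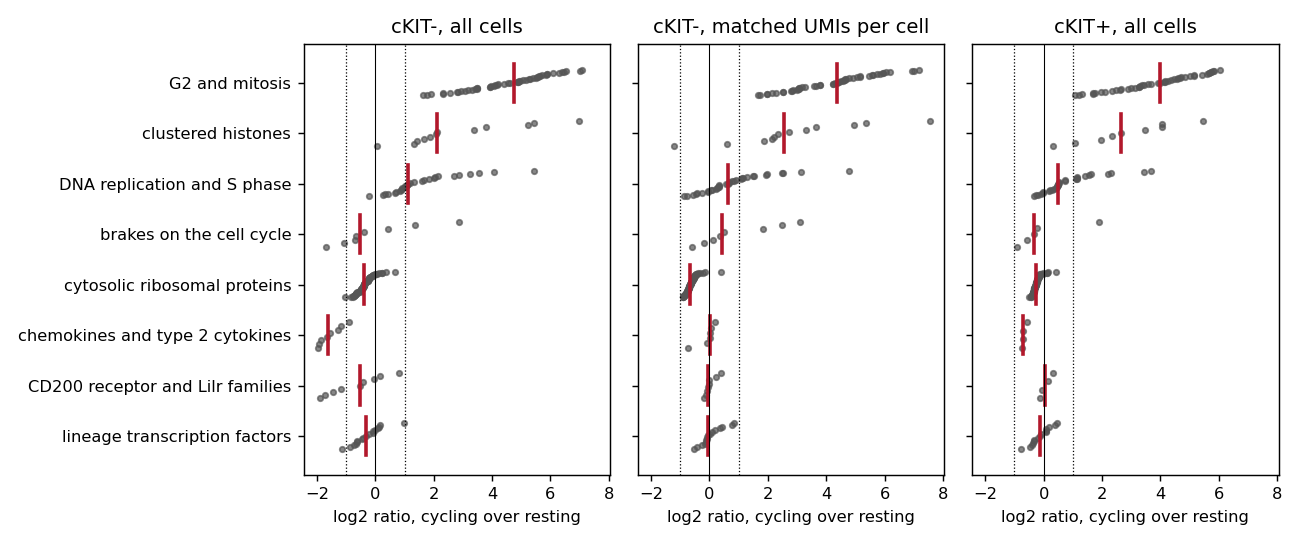
Each point is a gene with at least 50 CPM in either state, placed by its log2 ratio of cycling over resting basophils, in 8 gene lists. Red bars are medians and dotted lines mark 2-fold. The G2 and mitosis genes keep medians of 4.74, 4.37 and 4.0 across the panels, and the chemokine list moves from a median of -1.61 to 0.02 at matched depth.

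Both activators and brakes of the cell cycle were measured. Foxm1, a transcription factor of late cell cycle genes, had 40.6 against 2.08 CPM, a ratio of 19.6 (12.7 to 31.9), and Mybl2, a MuvB partner, 26.5 against 3.66 CPM. Ccnd3, a cyclin of G1, had 378 against 361 CPM, whereas Ccnd2 had 18.4 against 60.8 CPM and Myc 15.2 against 32.0 CPM. Among the brakes, the inhibitors of Cdk4 and Cdk6 stood out. Cdkn2c had 114 CPM in cycling and 15.6 CPM in resting cells, a ratio of 7.27 (6.16 to 8.63), and 8.54 at matched depth. Cdkn2d had 252 against 96.9 CPM, a ratio of 2.60, and 5.56 at matched depth. Cdkn2a had 58 UMIs in the members, with 5.17% of them in the top cell, and 3 UMIs in the resting cells, or 4.98 against 0.297 CPM. Cdkn1a, an inhibitor induced by p53, had 27.1 against 6.53 CPM. Cdkn1b, which holds cells in quiescence, had 52.7 against 83.5 CPM and Btg2, an antiproliferative gene, 81.3 against 262 CPM. At matched depth the ratios of Cdkn1b and Btg2 were 1.28 and 0.878. Of the 8 brakes with at least 50 CPM 2 were at least 2-fold higher and 2 lower, and at matched depth 3 were higher and none lower. Of the 6 that reached 50 CPM in both states over all cells, 1 was at least 2-fold higher and 2 lower. The shares over all genes were 9.04% higher and 5.17% lower, and 6.65% and 0.583% at matched depth.

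Lineage factors and granule genes were the next group. Of 17 lineage transcription factors with at least 50 CPM none was at least 2-fold higher and 1 was lower, a share near the 5.17% of all genes that were lower. Gata2, a factor required for basophils, had 1031 against 1381 CPM, with a ratio of 1.02 at matched depth. Cebpa had 559 against 871 CPM. Ifitm1, an interferon-induced membrane protein, had 1004 against 3368 CPM and 1116 against 1886 CPM at matched depth. Hdc, which makes histamine, had 437 against 642 CPM, but 483 against 446 CPM at matched depth. Il3ra, the interleukin 3 receptor subunit, had 262 against 249.4 CPM. Cdh1 had 157 against 253 CPM, and 185 against 169 CPM at matched depth. Ribosomal protein genes summed to 147496 CPM in cycling and 193198 CPM in resting cells, and 1 of 75 passed 2-fold. Nuclear genes of oxidative phosphorylation had a median log2 ratio of 0.43 with none of 73 past 2-fold. Calr, a chaperone of the endoplasmic reticulum, had 2163 against 970 CPM, but its ratio was 0.696 at matched depth.

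Members differed among themselves in the amount of each cell cycle list. In 999 members thinned to 2000 UMIs, S phase genes gave a median of 9 UMIs with quartiles of 4 and 16, and G2 and mitosis genes a median of 34 with quartiles of 16.5 and 49. Resting cells had medians of 2 and 4 UMIs. Across the 999 cells the pair of sums had a Spearman correlation of -0.61, given as a description of cells of 1 library that share a fixed total of UMIs. Clustered histones correlated with G2 and mitosis genes at 0.50 and with S phase genes at -0.16. With the 95th percentile of the resting cells as the limit, 12 UMIs for S phase and 9 for G2 and mitosis, 590 members (59.1%) were above it for G2 and mitosis alone, 91 (9.11%) for S phase alone, 278 (27.8%) for both and 40 for neither. The resting group was not free of such cells, with 85 above the S phase limit alone and 89 above the G2 and mitosis limit alone. The classes are ranges of a continuous amount, and Mki67 and Top2a, being late genes, favour cells beyond early S phase.

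**Figure D3:**
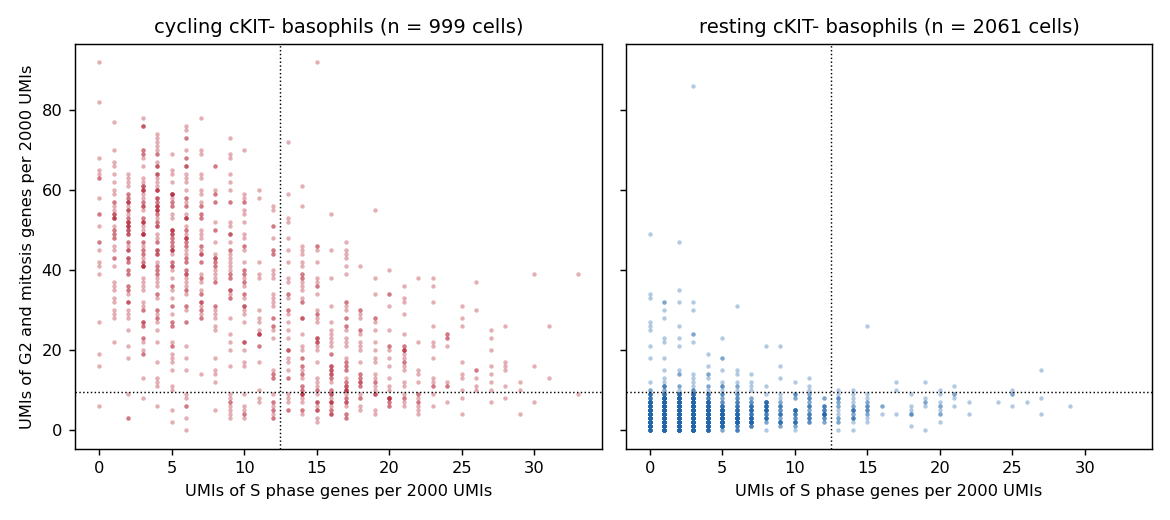
UMIs of S phase genes and of G2 and mitosis genes in each cKIT- basophil thinned to 2000 UMIs, with 999 cycling cells on the left and 2061 resting cells on the right. Dotted lines lie just above 12 and 9 UMIs, the 95th percentiles of the resting cells. Of the cycling cells 590 lie only above the horizontal line and 91 only to the right of the vertical one.

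Prss34 ordered the cKIT- basophils by their share of cycling cells. At 2000 UMIs the members had a median of 111 Prss34 UMIs, with quartiles of 86 and 136, and the resting cells a median of 11 with quartiles of 0 and 88. The resting group thus held many cells without Prss34 and others at the members' level. The 3060 basophils of the library with at least 2000 UMIs were divided into 4 classes by Prss34, unequal in size because of ties. The 106 shallower basophils were left out. In the lowest class, 546 cells with no Prss34 UMI, 1 cell met the cycling minimum at 2000 UMIs (0.183%, interval 0.00464% to 1.02%). The share was 8.42% (6.75% to 10.3%) in the second class, 32.9% (29.6% to 36.4%) in the third and 34.2% (30.9% to 37.6%) in the highest. The intervals of the third and highest classes overlap within counting error. Median depths before thinning were 2966, 3781, 9093 and 9555 UMIs, so that the depth of a cell moved with the class. Over all cells Prss34 had 55352 CPM in cycling and 31922 CPM in resting cells, a ratio of 1.73, and between cells of matched depth it had 55979 against 49411 CPM, a ratio of 1.13. In the cKIT+ library the share was 22.9% in the lowest class and 49.2% in the highest, with median depths of 13512 and 14056 UMIs. Within the members, Prss34 correlated with S phase genes at -0.01 and with G2 and mitosis genes at 0.02 over 999 cells. In 2229 cycling cKIT+ cells these values were -0.01 and 0.29. In the lowest and highest of 4 classes of members by Prss34, Ifitm1 had 1305 and 740 CPM, Cd34, a progenitor surface protein, 21.6 and 8.83 CPM, Ccl3 749 and 1042 CPM and Ccl6 1055 and 657 CPM.

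**Figure D4:**
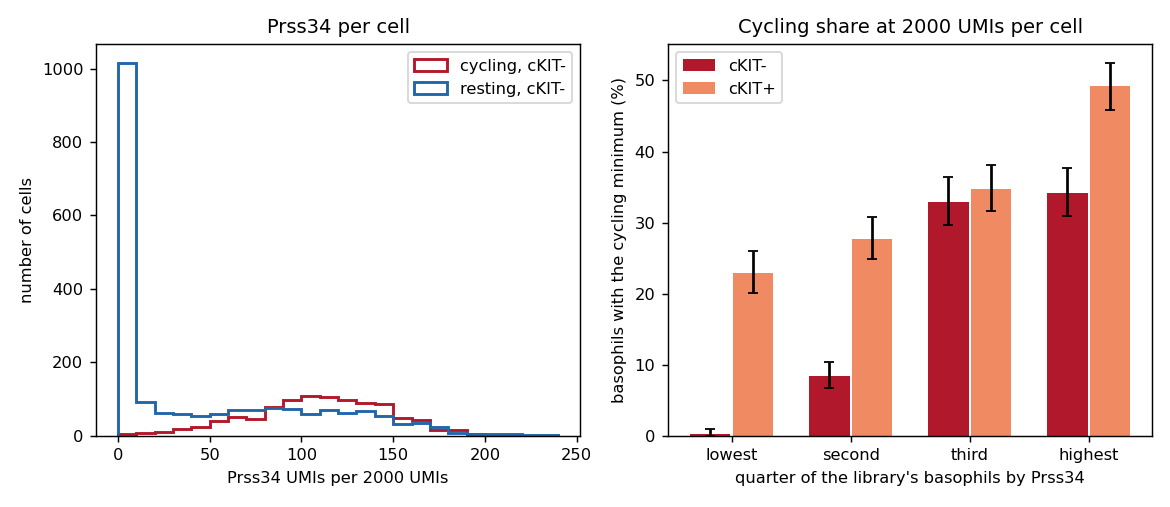
Left, number of cKIT- basophils by Prss34 UMIs after thinning to 2000 UMIs per cell, in bins of 10 UMIs. Right, percentage of basophils that met the cycling minimum at 2000 UMIs in each of 4 classes by Prss34, with exact binomial 95% intervals for counting error. In the cKIT- library the share is 0.183% in the lowest class and 34.2% in the highest.

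The same contrast was read in the E-cadherin+cKIT+ library, whose cells played no part in choosing the members but were chosen by the same genes. Of 2883 genes, 134 were at least 2-fold higher in cycling cKIT+ basophils (4.65%) and 10 were at least 2-fold lower (0.347%). All 47 G2 and mitosis genes with at least 50 CPM were at least 2-fold higher, with a median log2 ratio of 4.0. Among the 2646 genes with at least 50 CPM in either state of both libraries, 254 were higher in the cKIT- and 129 in the cKIT+ library, and 128 were higher in both, 50.4% of the first and 99.2% of the second. Of 63 lower genes in the cKIT- and 7 in the cKIT+ library, 7 were shared, and 0 genes passed 2-fold in opposite directions. Cdk1 had 233 against 13.4 CPM, Mxd3 28.3 against 0.372 CPM and Cd7 2.89 against 23.1 CPM in cycling and resting cKIT+ cells. The cKIT+ cells were deeper, with medians of 16999 UMIs in cycling and 10656 UMIs in resting cells.

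Cycling basophils of the 2 sorts were compared next. Of 3111 genes with at least 50 CPM in either group, 135 had a ratio of 2 or more in favour of the cKIT- cells (4.34%) and 97 were at least 2-fold lower in them (3.12%). Of the genes past 2-fold in either direction 58.2% were thus higher, and 73.5% were when the 10 most abundant genes were left out of the totals. Those 10 genes held 16.6% of UMIs in cKIT- and 10.1% in cKIT+ cells. Ccl4, a chemokine, had 142 CPM in cycling cKIT- and 10.4 CPM in cycling cKIT+ cells, a ratio of 13.7 (12.3 to 15.3), and Ccl3 905 against 74.5 CPM. Ccl6 had 826 against 86.4 CPM and Lilr4b 170.5 against 15.5 CPM. Adora2b, an adenosine receptor, had 67.8 against 8.25 CPM and Skap1, an adaptor protein, 88.7 against 12.7 CPM. Cyp4f18, an enzyme that inactivates leukotriene B4, had 381 against 62.8 CPM, Hacd4 355 against 67.4 CPM, Cd200r4 163 against 31.3 CPM and Glipr2 65.6 against 13.9 CPM. Prss34 itself had 55352 against 20412 CPM, a ratio of 2.71. Of the 6 chemokines and cytokines with at least 50 CPM 5 were at least 2-fold higher in the cKIT- cells, beside 4.34% of all genes tested. Ccl4, and Il6 with 94.1 against 33.5 CPM, reached 50 CPM only in the cKIT- cells. The filter therefore favoured higher calls, and the count is a description. Cells of this sort were also the shallower ones, and their levels are shares of the UMIs of a group.

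Genes higher in cycling cKIT+ basophils included early ones. Cd34 had 13.6 against 74.6 CPM in cycling cKIT- and cKIT+ cells, Tmem176b 11.6 against 76.6 CPM and Rgcc, a regulator of the cell cycle, 6.44 against 93.3 CPM. Of 9 progenitor genes with at least 50 CPM 6 were at least 2-fold lower in the cKIT- cells, beside 3.12% of all genes tested. In this list 1, the integrin gene Itga2b, was higher with 427 against 192 CPM. A gene such as Cd34 reached 50 CPM only in the cKIT+ cells, so the filter could favour lower calls and the count is a description. Of 14 nucleolar and ribosome assembly genes 7 were at least 2-fold lower, among them Npm1 with 588 against 1631 CPM. Ribosomal protein genes summed to 147496 against 259055 CPM. The neutrophil elastase gene Elane had 5.84 against 434 CPM and Prtn3, another azurophil granule protease, 13.3 against 352 CPM. Hba-a1 and Hbb-bs, the globin genes of red cells, had 1.46 against 77.8 CPM and 4.12 against 192 CPM. In the cKIT+ library these transcripts also sat in few cells: 1 cycling cell held 35.7% of the Hba-a1 UMIs, and 53 cycling cells held 97.0% of those of S100a8, S100a9, Camp, Ngp and Ltf. Without the neutrophil-rich cells of both libraries Elane had 5.87 against 242 CPM and Prtn3 13.1 against 247 CPM. Gm17590 and the granule genes Ltf and Ngp were lower in cKIT- cells too. Without the neutrophil-rich cells Ltf was at 0.0863 against 2.78 CPM and Ngp at 1.04 against 11.9 CPM. Leaving out the cells of the highest doublet scores instead gave ratios of 2.22 and 2.04, and on the cKIT- side these values rest on very few cells.

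Division genes of the 2 sorts were also set side by side. Cdk1 had 478 CPM in cycling cKIT- and 233 CPM in cycling cKIT+ cells, Rrm2 289 against 115 CPM and Hmgb2 4559 against 2159 CPM. Of the 12 clustered histones 3 were at least 2-fold higher in the cKIT- cells and 2 lower, beside 4.34% and 3.12% of all genes tested. Hist1h1c had 220 against 96.8 CPM and Hist1h1b 374 against 814 CPM. Of 52 G2 and mitosis genes with at least 50 CPM 6 were at least 2-fold higher in the cKIT- cells, with a median log2 ratio of 0.59 against 0.08 over all genes, and of 34 S phase genes 1 was. At 2000 UMIs the cycling cKIT- cells had a median of 34 UMIs of G2 and mitosis genes and 9 of S phase genes, and the cycling cKIT+ cells 18 and 10. Cells were chosen before thinning, by the same minimum, at median depths of 11082 UMIs (cKIT-) and 16999 UMIs (cKIT+). A deeper cell reaches that minimum with a smaller share of Mki67 and Top2a. Above neither resting limit of their own library were 4.0% of the cycling cKIT- and 14.3% of the cycling cKIT+ cells. How far this choice of cells moved the values between the sorts was not tested. Cdkn2c had 114 against 42.2 CPM and Cdkn2d 252 against 83.6 CPM. Of the 8 brakes 6 were at least 2-fold higher in the cycling cKIT- cells, Btg1 with 181 against 65.1 CPM, beside 4.34% of all genes tested. Cdkn2c, and Btg2 with 81.3 against 32.5 CPM, reached 50 CPM only in the cKIT- cells. The filter therefore favoured higher calls, and the count is a description.

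**Figure D5:**
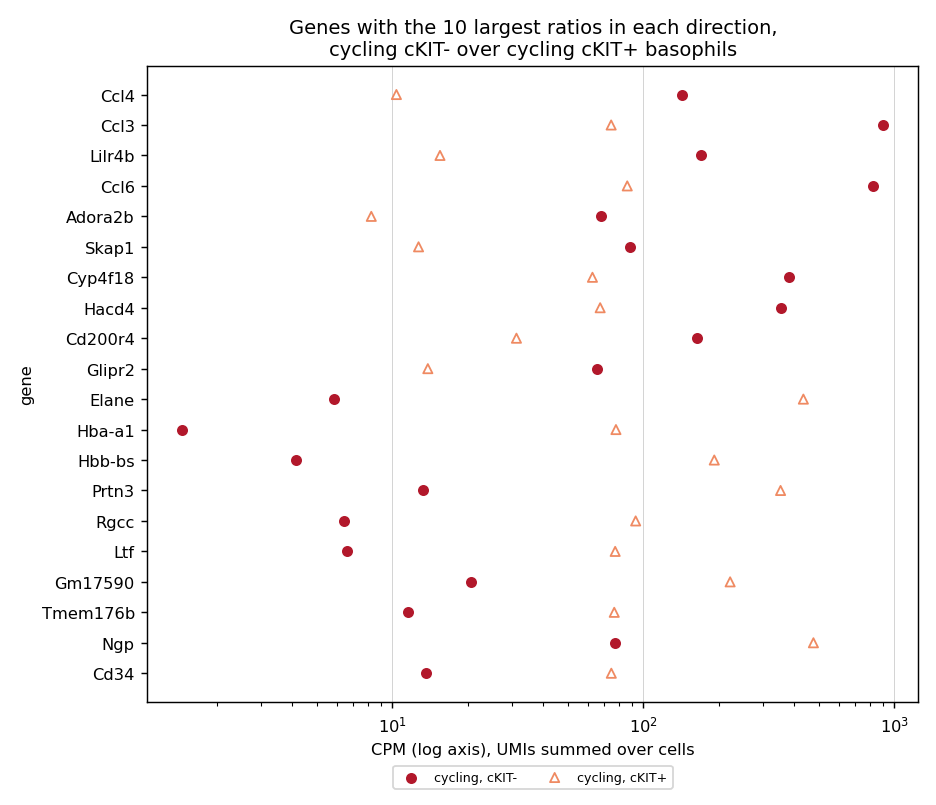
CPM on a log axis for the 10 genes with the largest and the 10 with the smallest ratio of cycling cKIT- (filled circles) over cycling cKIT+ basophils (open triangles), 1 library each. Ccl4 heads the upper genes with 142 against 10.4 CPM, and Elane has the smallest ratio with 5.84 against 434 CPM.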

How the data were processed

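Sorted bone marrow cells were measured in 2 single-cell libraries, 1 per sort. What the authors deposited is the unnormalized UMI count of every gene in every cell. Per the submitters' processing notes Cell Ranger 3.0.2 and the mm10 build were used, and the annotation release is not given in the sources used here. Kit versions named in the labels and methods differ. Total counts were 24033994 (cKIT-) and 95477153 (cKIT+), so the cKIT+ library is the more precise.

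Counts were used as deposited. Cells were chosen by the limits given with the results, UMIs were summed over cells and scaled to CPM, and a gene was counted at a ratio of at least 2 with at least 50 CPM in either group, without the 9 genes of the limits. A gene without UMIs entered ratios at the floor of 3 counts of the group. With 1 library per sort no test was made. Shares carry exact binomial (Clopper-Pearson) and ratios exact binomial 95% intervals, for counting error only, since cells of a library are not replicates. Thinning drew 2000 UMIs per cell, and depth-matched cells were drawn in bins of 2000 UMIs. The calls were tried on simulated counts with planted changes and counting error alone, which tells nothing about variation between cells, mice or libraries. The members, gene lists and comparisons were chosen with earlier results of these data known. Genes named are the 10 largest ratios in each direction, the 10 largest outside the cell cycle lists, the most abundant and the extreme members of the lists, and the genes of the limits and the sort. The genes Cdk1, Ccnb1, Plk1, Tk1, Mcm5, Mcm6, Il4, Mybl2, Myc, Cdkn1a, Cdkn2a, Kif11, Ckap2l, Gdpd3, Igfbp4 and Scin were added after their values were seen. Doublets were kept. Python 3.11.15, Scanpy 1.11.5 (Scrublet), and edgeR 4.0.16 (TMM factors alone) in R 4.3.3 were used. Leaving out neutrophil-rich cells was chosen after seeing the data. Other alternatives covered the limits, the study's cell filter, doublet scores, CPM minimums, scaling, cell weight and depth. One marker gene is not reported here.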

Additional observations from a re-analysis of the deposited data

Results flagged for a closer look

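Among genes with at least 50 CPM in either state of both libraries, 3 lay clearly above 1 in one library and clearly below 1 in the other in their ratio of cycling over resting basophils. With 1 library per sort the difference between the libraries was not tested. Bcl2, which protects cells from apoptosis, had a ratio of 1.31 in the cKIT- and 0.799 in the cKIT+ library. Igfbp4, an insulin-like growth factor binding protein, had ratios of 1.47 and 0.795. Scin, an actin-severing protein, had ratios of 1.59 and 0.788. At matched depth the ratios in the cKIT- library were below 1 as well, at 0.637 for Bcl2, 0.571 for Igfbp4 and 0.424 for Scin.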

How the results depend on the processing

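No paired analysis was possible because each sort had 1 library. The share of cKIT- basophils that met the cycling minimum was 31.7%, and it was 35.2% with 0.5% of UMIs in the basophil genes, 28.7% with at least 3 and 37.8% with at least 1 UMI of Mki67 and Top2a, and 19.6% and 42.3% with cells thinned to 2000 and 4000 UMIs. Thinning leaves out shallower cells, and the value at 4000 UMIs is over 1915 of the 3166 basophils, without the shallow ones that were mostly resting. The cKIT+ share of 63.6% was 58.5%, 73.8%, 33.8% and 50.2% under the last 4 of these settings, and 61.8% without the highest doublet scores.

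For cycling over resting cKIT- cells, the 292 higher and 167 lower genes were 525 and 303 at a minimum of 20 CPM, 78 and 51 at 200 CPM, and 1218 and 983 with no CPM minimum and 10 UMIs. The lower genes numbered 276 with every cell given the same weight, 273 at 2000 UMIs per cell and 18 at matched depth. In the cKIT+ library, 134 and 10 became 242 and 22, 37 and 2, and 811 and 453 under the same minimums, and the lower genes numbered 19, 21 and 5. Between the sorts, 135 and 97 became 239 and 199, 43 and 41, and 714 and 1628, and 222 were higher without the 10 most abundant genes, which shifted the median log2 ratio from 0.08 to 0.20.

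The summed ratio of chemokines and type 2 cytokines, 0.332, was 1.01 at matched depth. Without the cells of the highest doublet scores the ratios of Ltf and Ngp between the sorts were 2.22 and 2.04, where they were 0.0856 and 0.162. The cause was not tested. At matched depth the summed ratios also crossed 1 for neutrophil markers (1.59 to 0.220), brakes (0.843 to 1.72) and endoplasmic reticulum genes (1.47 to 0.813), and the neutrophil markers were at 0.885 under the study's cell filter. Further lists and genes crossed 1 at matched depth, examples being Camp (2.43 to 0.00823), Calr (2.23 to 0.696), Mpo (1.37 to 0.357), Ccl3 (0.448 to 1.14), Lilr4b (0.306 to 1.17) and Cdh1 (0.621 to 1.09). Counting error is small for abundant genes but not for ratios that rest on few UMIs. The Camp ratio at matched depth rests on 6 UMIs in cycling and 722 UMIs in resting cells, with an interval of 0.00301 to 0.0180. Over all resting cells Camp had 72.5 CPM with and 1.79 CPM without the 3 neutrophil-rich cells. In all members it had 176 CPM with and 1.55 CPM without 2 such cells. The summed neutrophil ratios include the same cells, and the intervals do not cover how few cells hold these UMIs. Variation between mice and between sorts is not measured.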
